A study of Mus musculus with 2 samples.

Results

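The 6 genes described here encode basement membrane collagens: Col4a1, Col4a2, Col4a3, Col4a4, Col15a1 and Col18a1. They were listed by name, at a time when earlier results of these data were known, and are 6 of the 21911 protein-coding genes of the GENCODE M21 annotation on mm10. Around each gene, all peaks and footprints in the gene body and 20 kb either side were taken, and a promoter was 1 kb either side of any annotated start. DNase-seq finds accessible chromatin as the DNA that the enzyme DNase I cuts in isolated nuclei, and a footprint is a short stretch inside it that was protected from cutting.

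The tissue was heart of male B6CASTF1/J mice, the first-generation offspring of C57BL/6J and CAST/EiJ, aged 14 days. There was 1 group with 2 biological replicates and no treatment or contrast, so the results are descriptions and no test between groups was possible. Replicate 1 is labelled as 3 males, replicate 2 has no animal number, and pooling of hearts is not stated. The SD of 2 replicates may therefore set a pool beside 1 heart or be partly technical.

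The larger peak sets held 143122 peaks in replicate 1 and 125118 in replicate 2, and the footprint lists 350009 and 335568 entries. Merging the peaks gave 158036 regions, and 104208 of them had a peak in each replicate and are called shared. On the authors' scale replicate 1 was the higher in 80.8% of shared regions. Read totals were not analysed here, so the depth behind a signal is unknown and the lack of a peak means only that none was called.

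Basement membranes are thin sheets of matrix under endothelium and around each heart muscle cell, and collagen IV is their scaffold. Its chain genes lie in head-to-head pairs, in which neighbouring genes are transcribed away from each other out of a short shared stretch. Col4a1 and Col4a2 encode the chains of the network found in nearly all basement membranes, while Col4a3 and Col4a4 encode chains of the network known from the kidney's filtration barrier. Col15a1 and Col18a1 encode collagens XV and XVIII, which carry glycosaminoglycan side chains and border basement membranes. Collagen XVIII is also the source of the fragment endostatin.

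The DNA of the paired promoters is shown first because each stretch serves a start on either strand. Sequences are from the RefSeq mouse reference (mm10), which is that of C57BL/6J. They run 5′ to 3′ on the plus strand, and capitals mark bases inside footprints of both replicates. The Col4a1-Col4a2 stretch is the whole peak, chr8:11312681-11312920, and lies within the stretch that the RefSeq promoter windows of Col4a1 and Col4a2 cover between them. The RefSeq promoter table held 5 of the 6 genes, all but Col4a3. The Col4a3-Col4a4 stretch is the RefSeq promoter window of Col4a4, chr1:82586800-82587099, which holds both starts and most of the peak.
Col4a1-Col4a2 promoter: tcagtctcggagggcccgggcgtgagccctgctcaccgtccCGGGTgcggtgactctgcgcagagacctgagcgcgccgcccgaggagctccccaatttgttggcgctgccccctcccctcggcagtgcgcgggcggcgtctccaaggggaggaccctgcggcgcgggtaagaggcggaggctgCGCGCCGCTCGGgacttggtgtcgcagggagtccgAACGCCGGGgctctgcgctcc
Col4a3-Col4a4 promoter: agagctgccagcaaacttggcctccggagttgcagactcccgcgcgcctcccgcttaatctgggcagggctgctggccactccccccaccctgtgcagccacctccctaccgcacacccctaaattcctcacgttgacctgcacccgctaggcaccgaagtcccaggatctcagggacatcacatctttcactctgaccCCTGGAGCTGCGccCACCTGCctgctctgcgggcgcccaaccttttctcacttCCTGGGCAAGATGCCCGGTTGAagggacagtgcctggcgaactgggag

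Col4a1 and Col4a2 shared 1 peak over both of their starts. The 5′ end of Col4a1 lies at position 11312826 of chromosome 8 on the minus strand and that of Col4a2 at position 11312805 on the plus strand, so their first exons overlap by 22 bp. The peak spanned chr8:11312701-11312920 in replicate 1 and chr8:11312681-11312920 in replicate 2. Its signal, which the authors scaled by read depth, was 6.94 in replicate 1 and 6.75 in replicate 2, with a mean of 6.85 ± 0.14 (SD, n = 2). This was the strongest promoter peak of the 6 genes in both replicates. Among the 15069 protein-coding genes with a promoter peak in both replicates it stood at percentile 51.6, and the median of those genes was 6.60.

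Col4a3 and Col4a4 were also open from their shared stretch, at a lower signal. Their 5′ ends, at position 82586921 of chromosome 1 on the plus strand and position 82586849 on the minus strand, lie 71 bp apart. The signal was 2.17 in replicate 1 and 2.09 in replicate 2, with a mean of 2.13 ± 0.05 (SD, n = 2), at percentile 22.1 of open genes. The start at position 82586921 belongs to a transcript with a retained intron, and the protein-coding transcript of Col4a3 starts 55 bp further in. The replicates differed in where the peak ended. In replicate 1 it spanned chr1:82586921-82587160, covered the Col4a3 start and stopped 72 bp short of the Col4a4 start. In replicate 2 it spanned chr1:82586781-82587160 and covered both starts. Col4a4 had no other promoter peak, so its 2 annotated starts were read from this peak alone.

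A promoter peak was present in both replicates at all 6 genes, which are called open, beside 68.8% of all protein-coding genes. With 1 kb around the gene's 5′ end alone the count was again 6 of 6, beside 64.2% of all genes. The highest promoter peak was the same for both genes of a collagen IV pair, so these counts of 6 rest on 4 loci. Both genes of each collagen IV pair were thus open, as in 96.2% of the 1195 head-to-head pairs of protein-coding genes whose 5′ ends lie within 1 kb. A single peak over both starts in both replicates was found for 1 of the 2 collagen pairs, Col4a1-Col4a2, beside 34.4% of those 1195 pairs. For pairs with 5′ ends within 200 bp, to which both collagen pairs belong, the share was 61.1% of 643. These shares are high enough that neither count sets the collagen genes apart.

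What differed between the collagen pairs was the level. The higher promoter signal of Col4a1-Col4a2 stood at percentile 26.2 of the 1195 pairs, and that of Col4a3-Col4a4 at percentile 5.65, where the median pair had 10.5. Among the 411 pairs with 1 peak over both starts, the Col4a1-Col4a2 peak stood at percentile 25.2 and the median was 10.7. Most head-to-head pairs thus had a stronger promoter peak than either collagen pair.

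**Figure D1:**
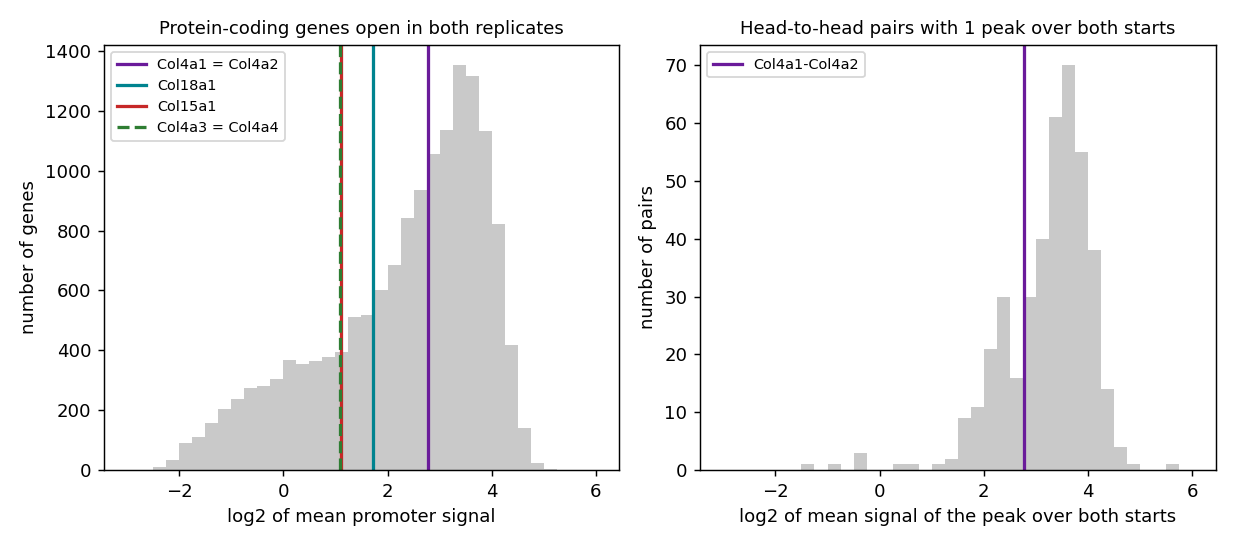
The left panel shows the log2 mean promoter signal of the protein-coding genes open in both replicates (grey bars, number of genes) with the collagen genes as lines, and the right panel the log2 mean signal of head-to-head pairs with 1 peak over both starts (grey bars, number of pairs) with Col4a1-Col4a2 as a line. Col4a1-Col4a2 lies near the middle of open genes, at percentile 51.6, and low among the pairs, at percentile 25.2, while the lines of Col4a3-Col4a4 and Col15a1 nearly coincide.

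The third collagen IV pair of the mouse, on the X chromosome, has its starts 1308 bp apart and was weaker still. Col4a5 had a promoter signal of 1.97 in replicate 1 and 1.18 in replicate 2, and Col4a6 had 0.319 and 0.340. Males carry 1 copy of X, so these signals are not on the same footing as those of the autosomal pairs. Their windows held 3 and 9 shared regions.

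Among its annotated starts, Col15a1 had the highest peak near an internal one. The peak at the 5′ end (position 47208161 of chromosome 4, plus strand) measured 1.41 in replicate 1 and 1.26 in replicate 2, a mean of 1.34 ± 0.11 (SD, n = 2). In replicate 1 it ended 21 bp short of the start, and in replicate 2 it covered the start. The antisense noncoding gene Gm12426 also starts within 1 kb, so the peak cannot be given to 1 gene. The strongest promoter peak lay in the window of an internal start, that of the noncoding transcript Col15a1-205, 25.1 kb into the gene. It began 214 bp past that start in replicate 1 and 234 bp past it in replicate 2, and so covered the start in neither. It had 2.37 in replicate 1 and 1.94 in replicate 2, a mean of 2.15 ± 0.30 (SD, n = 2), at percentile 22.1 of open genes. Footprints covered 51 of its 300 bases in each replicate, and 34 bases in both. The peak is shown because it gave the promoter value of the gene, and its sequence does not hold the start itself.
Col15a1 internal start, chr4:47233481-47233780: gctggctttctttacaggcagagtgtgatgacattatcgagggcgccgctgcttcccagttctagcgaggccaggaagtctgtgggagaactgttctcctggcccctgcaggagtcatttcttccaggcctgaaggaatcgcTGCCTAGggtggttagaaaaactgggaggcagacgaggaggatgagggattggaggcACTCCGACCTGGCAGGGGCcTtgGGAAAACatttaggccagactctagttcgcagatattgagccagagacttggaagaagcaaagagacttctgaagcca

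Among its annotated starts, Col18a1 likewise had the highest peak near an internal one. Its 5′ end (position 77166548 of chromosome 10, minus strand) is also the start of a protein-coding transcript. The signal there was 1.34 in replicate 1 and 1.18 in replicate 2, a mean of 1.26 ± 0.11 (SD, n = 2). The second annotated start, that of a protein-coding transcript, lies 52.6 kb further along the gene at position 77113946. There the signal was 3.41 in replicate 1 and 3.16 in replicate 2, a mean of 3.28 ± 0.18 (SD, n = 2). The replicates did not overlap between these starts, the second being higher in both. The peak lay 15 bp upstream of that start in replicate 1 and 35 bp in replicate 2. A further start at position 77089428 had a nearby peak of 1.70 in replicate 1 and 1.22 in replicate 2. The peak of the second start is shown because it gave the promoter value of the gene. A CpG count around each start went the other way, with an observed to expected CpG ratio of 0.499 at the 5′ end and 0.260 at the second start, beside a median of 0.553 for all genes.
Col18a1 second start, chr10:77113961-77114140: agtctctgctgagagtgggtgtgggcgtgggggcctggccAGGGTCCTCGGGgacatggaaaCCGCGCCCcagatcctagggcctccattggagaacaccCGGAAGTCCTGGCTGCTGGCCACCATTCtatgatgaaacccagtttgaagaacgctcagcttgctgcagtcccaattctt

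**Figure D2:**
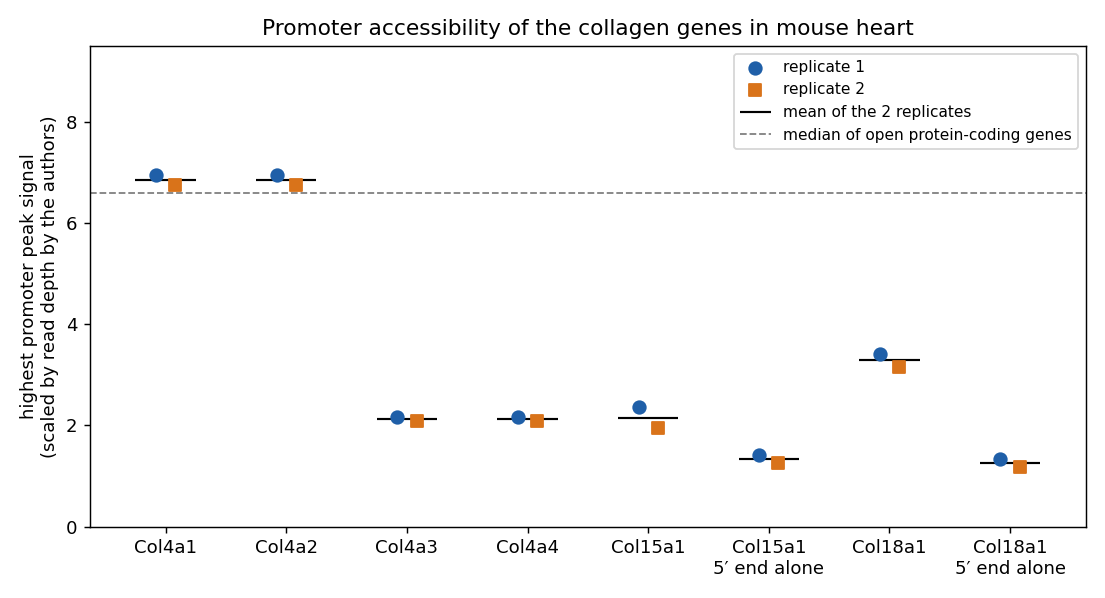
The highest promoter peak signal (vertical axis, scaled by read depth by the authors) is plotted for each gene in replicate 1 (circles) and replicate 2 (squares), with the mean as a black bar and the median of open genes, 6.60, as a dashed line. Col4a1 and Col4a2 share 1 value just above that median, and the other genes lie below 3.5. The 5′ ends of Col15a1 and Col18a1 are lower than the peaks near their internal starts.

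By the highest peak within 1 kb of any annotated start, the genes ran Col4a1 and Col4a2, then Col18a1, then Col15a1, Col4a3 and Col4a4. The lowest Col4a1-Col4a2 value, 6.75, was above the highest Col18a1 value, 3.41, and the lowest Col18a1 value, 3.16, was above the highest Col15a1 value, 2.37. Col15a1 and Col4a3-Col4a4 did not differ beyond their spread. The values of the pair, 2.17 and 2.09, lay between those of Col15a1, 2.37 and 1.94. Below Col4a1 and Col4a2, the order changed with the window. At the 5′ end alone, Col4a3 and Col4a4 had a mean of 2.13, Col15a1 1.34 and Col18a1 1.26. With windows of 2 kb, Col15a1 had 6.34 and Col18a1 3.28. Genes nearest in promoter signal over the 2 replicates were Lrp6, Phf21b and Hcfc1 for Col4a1, and 1700016K19Rik, Rnf213 and Slc22a17 for Col4a3. For Col15a1 they were Slc37a2, Mgp and Rnf207, and for Col18a1 Myo18b, Gm13889 and Kctd1. The distances were at most 0.03 on the log2 scale. With 2 replicates of 1 group, this likeness is one of level only.

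The base composition of the promoters followed the order of the pairs. Within 500 bp of the 5′ end, Col4a1 and Col4a2 had 71.0% and 70.6% G and C and CpG ratios at percentiles 76.0 and 77.3 of all genes. Col4a3 and Col4a4 had 61.3% and 60.8% G and C and CpG ratios at percentiles 43.2 and 43.7. Col15a1 stood at percentile 73.4 and the 5′ end of Col18a1 at percentile 46.3. Col15a1 had a CpG ratio close to that of Col4a1 and a signal at its 5′ end of 1.34, against 6.85 at the Col4a1 start, so composition and signal did not go together across the 6 genes.

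Short motifs were looked for in the printed promoters on both strands. The Col4a1-Col4a2 peak held 2 GC boxes (GGGCGG), which 42.7% of windows of that length at gene starts hold, and 1 CCAAT box (CCAAT), which 31.6% hold. It also held 1 KLF match (GGGNGTG), which 25.1% hold. None of these lay in a footprint of both replicates. The Col4a3-Col4a4 window held no GC box and no CCAAT box, and 2 KLF matches outside shared footprints (in 29.5% of windows). It held 1 ETS core (GGAAGT, in 23.9% of windows), which touched a footprint of both replicates. In the Col18a1 peak, the longer ETS form (ACTTCCGG, in 4.14% of windows) and the core (in 17.4%) overlap each other at the edge of a 28 bp footprint whose limits were the same in both replicates. The same peak had 2 CCAAT boxes (in 25.96% of windows) and 2 KLF matches (in 19.9%), and the Col15a1 peak 1 CCAAT box (in 36.6%) and 1 ETS core (in 23.9%), all outside shared footprints. No TATA box (TATAAA) was found in any of the 4 promoter sequences, where 7.503% to 10.6% of windows of their lengths hold one. A match describes letters and does not show that a factor was bound.

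Footprints covered a small part of the paired promoters. The Col4a1-Col4a2 peak had 3 footprints in replicate 1 and 5 in replicate 2, covering 34 and 58 of its 240 bases, with 26 bases in common. The Col4a3-Col4a4 peak had 4 in each replicate, and 41 bases of the printed window lay in footprints of both. Over all promoter windows, Col4a1 had 17 footprints in replicate 1 and 15 in replicate 2, Col4a2 16 and 12, Col18a1 14 and 18, Col15a1 11 in each, and Col4a3 and Col4a4 4 in each. Open genes had a median of 8 in each replicate. Since the number of starts and so the width of the windows differs, from 2058 bp for Col4a4 to 14144 bp for Col4a1, these counts do not compare footprint density.

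Col4a1, Col4a2 and Col18a1 lay in stretches rich in accessible regions, promoters included. In the 4 loci together, 100 of 165 regions were shared by both replicates, beside 65.9% in the whole series. Of the shared ones, 81 lay away from promoters of protein-coding genes, beside 76148 of 104208 in the whole series. Per 100 kb of window there were 16.8 shared regions at Col4a1, 15.3 at Col4a2, 14.9 at Col18a1, 10.3 at Col15a1, 7.29 at Col4a4 and 6.28 at Col4a3. Among the 2489 protein-coding genes of at least 100 kb, whose median was 4.67, these stand at percentiles 99.1, 98.3, 97.9, 88.7, 72.6 and 65.1. Against all protein-coding genes, whose median was 6.74, Col4a1 stood at percentile 88.3 and Col4a3 at 46.9. Without regions at promoters, the densities were 12.95 at Col4a1, 11.9 at Col4a2, 9.72 at Col18a1, 8.97 at Col15a1, 6.73 at Col4a4 and 5.14 at Col4a3. Those of Col4a1 and Col4a2 stood at percentiles 98.7 and 98.0 of the long genes, and those of Col18a1 and Col15a1, now close to each other, at 94.2 and 92.0. The windows of paired genes overlap, so the pair members are not independent of each other. These densities count regions whatever their strength. Of the shared regions away from promoters, 34 of 35 at Col4a1-Col4a2 had a signal above 0.831, the median of all such regions. At Col18a1 5 of 15 did, at Col15a1 12 of 13 and at Col4a3-Col4a4 8 of 18.

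**Figure D3:**
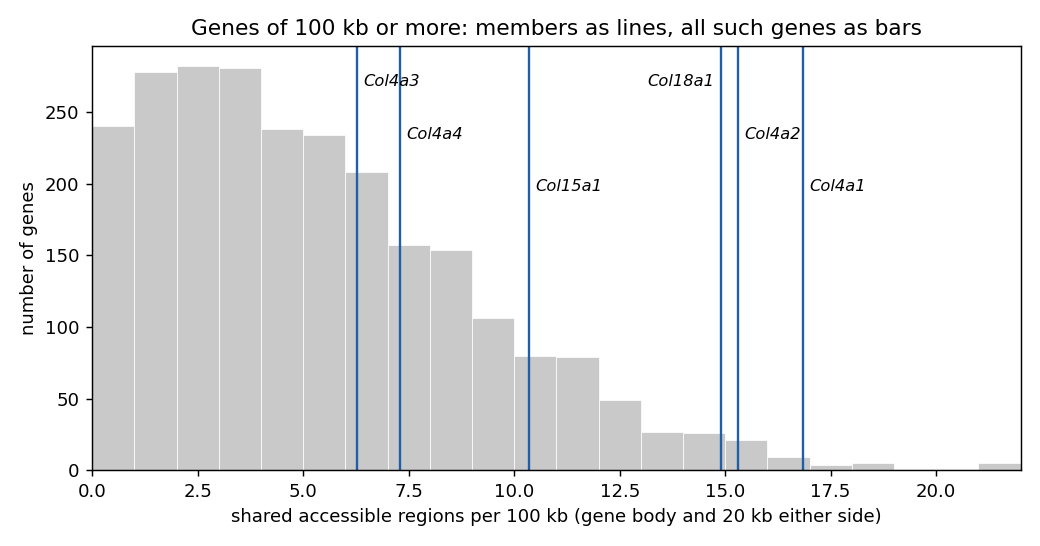
Shared accessible regions per 100 kb of gene body and 20 kb either side (horizontal axis) are shown for all protein-coding genes of 100 kb or more (grey bars, number of genes) and for the collagen genes (lines). Col4a1, Col4a2 and Col18a1 lie between 14.9 and 16.8, in the upper tail, and Col4a3 and Col4a4 lie between 6.28 and 7.29, nearer the bulk.

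Most shared regions inside the genes lay in introns, and the counts per intron are not scaled by intron length. Of the 18 shared regions whose middle lies in Col4a1, 10 were in the first intron, which is 44.9 kb long. In Col4a2, 19 of 19 were in introns and 7 of them in intron 3. Those 7 lay from 1.12 kb to 36.0 kb from the 5′ end of a gene of 136483 bp. In Col18a1, 12 of 19 were in intron 2 of the transcript that begins at the 5′ end, 9 of them before the second start and 3 past it. Col4a3 and Col4a4 each had 8 shared regions with their middle in the gene, 7 and 8 of them in introns. In Col4a4, 3 were in intron 37. In Col15a1, 11 of 12 were in introns, with 4 in intron 2.

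At Col18a1, Col15a1 and Col4a3-Col4a4, the strongest region away from promoters exceeded the highest promoter peak, and at Col4a1-Col4a2 it did not. In Col18a1, a region in intron 2 at chr10:77130661-77130840, 35.8 kb from the 5′ end, had 10.2 in replicate 1 and 6.31 in replicate 2, a mean of 8.25 ± 2.75 (SD, n = 2). It stood at percentile 99.0 of the 76148 shared regions away from promoters and was above the 3.28 of the gene's best promoter peak. The next in Col18a1, at chr10:77082641-77082820 in intron 6, had 4.14 and 2.75, and the third, at chr10:77070181-77070360 in intron 22, had 2.09 and 1.58.

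In Col15a1, the region at chr4:47234981-47235200 in intron 2 had 7.07 in replicate 1 and 5.62 in replicate 2, a mean of 6.34 ± 1.03 (SD, n = 2), at percentile 97.9. Its middle lies 26.9 kb from the 5′ end, against 25.5 kb for the weaker peak near the internal start. A promoter window of 2 kb would take it in and raises the promoter signal of Col15a1 to 6.34. A region at chr4:47255761-47255940 in intron 6 had 6.11 and 4.05, and one at chr4:47237321-47237540 in intron 2 had 4.77 and 3.70. All 3 exceeded the peaks near both annotated starts of Col15a1 described above.

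At Col4a1-Col4a2 the shared promoter remained the strongest region. Away from promoters the strongest were chr8:11253601-11253780 in intron 2 of Col4a1, with 5.95 in replicate 1 and 4.18 in replicate 2, and chr8:11392881-11393080 in intron 4 of Col4a2, with 5.86 and 4.05. They lay 59.1 kb and 80.2 kb from the start of the gene that holds them. For Col4a1, chr8:11273561-11273860 in intron 1 followed with 3.23 and 2.85, and chr8:11187601-11187780, beyond the 3′ end, with 3.19 and 2.55. That last region covers the start of the antisense gene Gm15418. For Col4a2, chr8:11382501-11382840 in intron 4 followed with 3.43 and 2.51, and chr8:11421241-11421420 in intron 22 with 2.51 and 2.44. Among regions counted as promoters, chr8:11405781-11406020, near an internal start of Col4a2, had 4.06 and 3.29 and came next after the regions in intron 2 of Col4a1 and intron 4 of Col4a2 that head this list. A peak near the shared start, chr8:11311641-11311840, had 3.31 and 2.62.

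At Col4a3-Col4a4 the strongest region away from promoters, chr1:82641781-82641940, had 4.48 in replicate 1 and 4.23 in replicate 2, a mean of 4.35 ± 0.18 (SD, n = 2). It lies 54.9 kb into Col4a3, in intron 2 of the protein-coding transcript and in an exon of a transcript with a retained intron, and exceeded the shared promoter in both replicates. A region at chr1:82634541-82634740 in intron 1 of Col4a3 had 2.80 and 2.14. In the window of Col4a4, the highest region, chr1:82433461-82433640, had 2.72 and 1.55 and lies in an intron of the neighbouring gene Rhbdd1. Within Col4a4 itself, chr1:82577921-82578100 in intron 1 had 2.13 and 1.95. It was the third region of the Col4a3 window as well. The third of the Col4a4 window, chr1:82597301-82597460 in intron 1 of Col4a3, had 1.49 and 1.23. Other strong peaks of the flanks also belonged to neighbours, namely the start of Mff (8.99 in replicate 1 and 6.30 in replicate 2) beyond Col4a3 and that of Slc19a1 (6.79 and 5.32) beyond Col18a1.

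**Figure D4:**
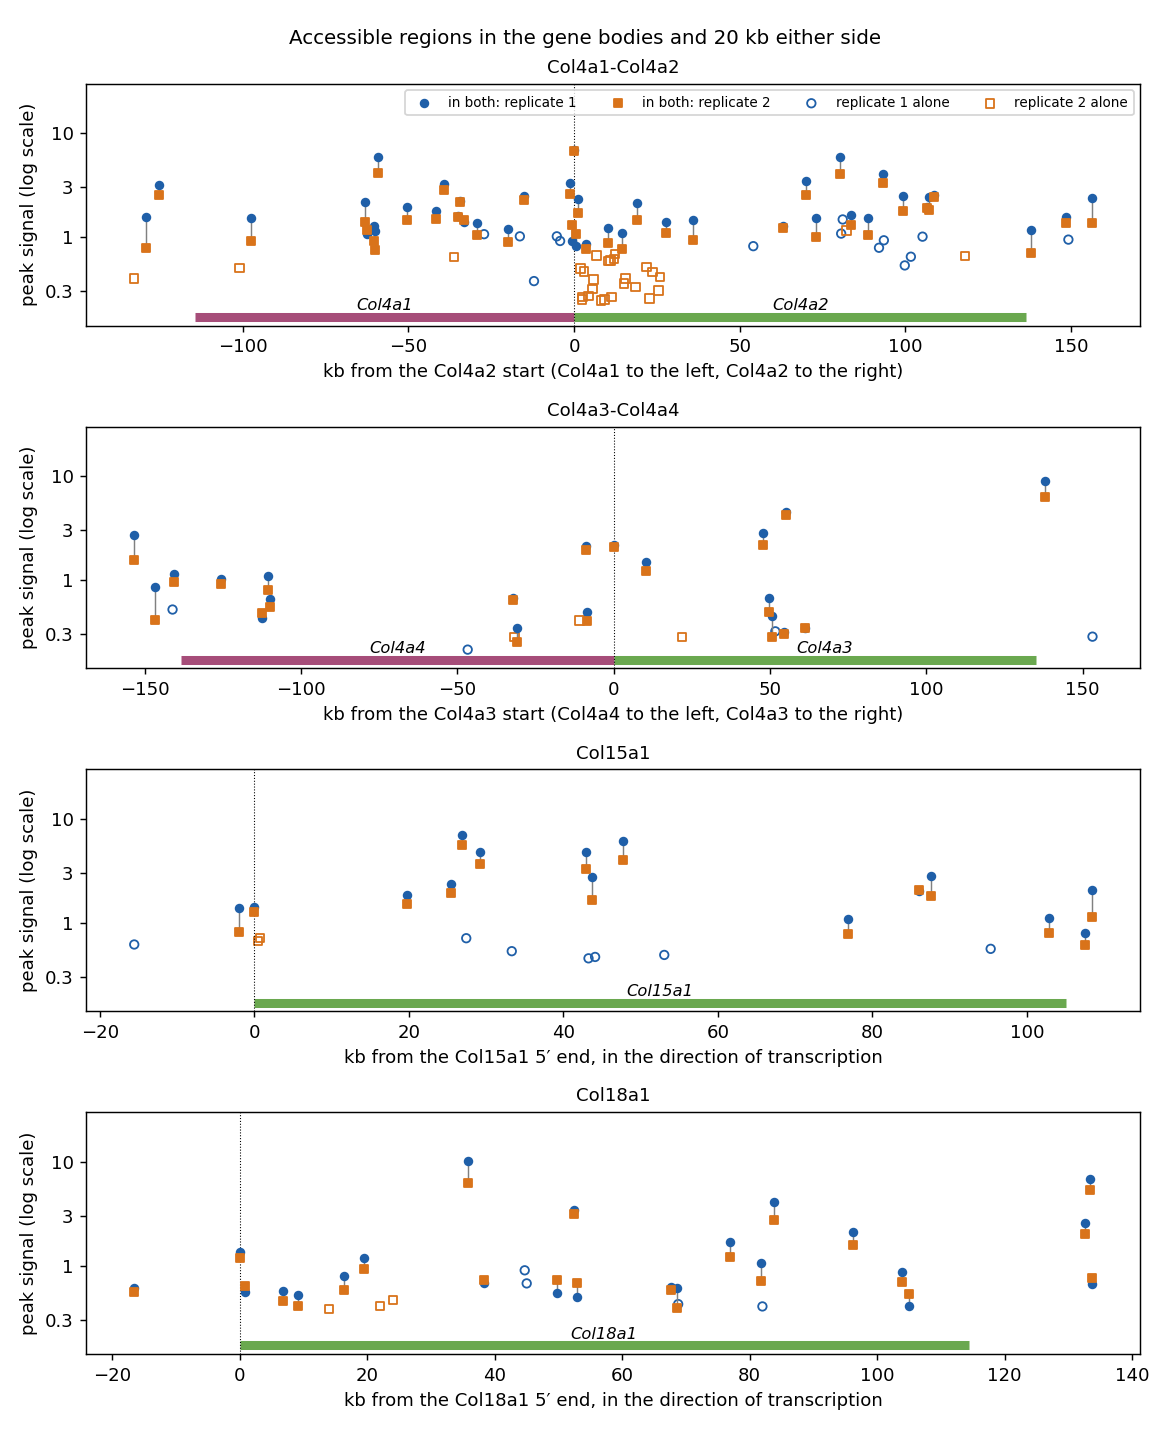
Each panel gives the signal of every region (vertical axis, log scale) by its distance in kb from the start, with filled symbols for regions in both replicates (circles for replicate 1, squares for replicate 2, joined by a line), open symbols for regions in 1 replicate, and coloured bars for the genes. The strongest points away from any gene start are the Col18a1 region at 35.8 kb and the Col15a1 region at 26.9 kb, and open squares crowd the first part of Col4a2.

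The strongest region away from promoters in each locus is shown, and long footprints in these intronic regions had nearly the same limits in both replicates. The Col18a1 region has a 64 bp footprint with the same first and last base in each replicate, and 106 of its 180 bases lay in footprints of both. In the Col4a1 region the longest footprint was 44 bp in replicate 1 and 43 bp in replicate 2, in the Col4a3 region 33 bp and 30 bp, and in the Col15a1 region 33 bp and 32 bp. The median footprint of the whole series was 11 bp in replicate 1 and 10 bp in replicate 2. The lengths above are the longest of each region, so a median is not a like value. How common such lengths are at strong regions was not counted.
Col18a1 intron 2: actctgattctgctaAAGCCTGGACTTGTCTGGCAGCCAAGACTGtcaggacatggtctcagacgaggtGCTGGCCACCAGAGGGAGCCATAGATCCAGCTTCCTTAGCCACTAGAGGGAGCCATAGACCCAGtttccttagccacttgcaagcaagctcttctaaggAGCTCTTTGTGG
Col15a1 intron 2: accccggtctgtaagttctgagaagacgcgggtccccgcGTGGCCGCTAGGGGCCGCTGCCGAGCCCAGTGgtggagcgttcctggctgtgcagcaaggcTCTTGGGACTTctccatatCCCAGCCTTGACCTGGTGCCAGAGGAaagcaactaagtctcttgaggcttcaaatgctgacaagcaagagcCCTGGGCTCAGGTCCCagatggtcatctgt
Col4a1 intron 2: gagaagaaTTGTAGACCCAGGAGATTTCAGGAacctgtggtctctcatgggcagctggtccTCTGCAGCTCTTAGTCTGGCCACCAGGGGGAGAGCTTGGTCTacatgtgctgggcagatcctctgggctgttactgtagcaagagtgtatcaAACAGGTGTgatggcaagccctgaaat
Col4a3 intron 2: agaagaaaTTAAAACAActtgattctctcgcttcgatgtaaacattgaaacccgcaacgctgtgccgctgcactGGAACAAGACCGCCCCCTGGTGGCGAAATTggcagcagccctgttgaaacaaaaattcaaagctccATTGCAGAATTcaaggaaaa

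The long footprints of 3 of these 4 regions held the core letters of the motif of CTCF, a factor that organises chromatin loops (CCNNNAGNNGG, either strand). The Col18a1 footprint held it at 2 places and those of Col4a1 and Col4a3 at 1 place each, while the Col15a1 region held none. These letters were chosen after the sequences had been seen. They are also common at strong sites in general, since 29.3% of all shared regions away from promoters held them within 200 bp at their middle, and 53.2% of the strongest 10 percent. Among the 81 collagen regions away from promoters 25, or 30.9%, held them, as did 6 of the 10 that fell in the strongest 10 percent. The first share is near that of all regions, and the other rests on 10 regions.

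Of the other motifs, the TEAD letters (GGAATG), of a family that acts with the Hippo pathway, differed most in number from the background. They were present in 21 of the 81 collagen regions away from promoters, or 25.9%, beside 13.3% of the 76148 regions of the series. The matches were found in 7 of 18 regions at Col4a3-Col4a4, 9 of 35 at Col4a1-Col4a2, 3 of 13 at Col15a1 and 2 of 15 at Col18a1. With 17 motifs searched and no test made, this is a count. GATA letters (AGATAA) were in 6 of the 81 regions, or 7.41%, beside 7.99%, and AP-1 letters (TGANTCA) in 7, or 8.64%, beside 8.96%.

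Of the 165 collagen regions, 100 were shared and 65 had a peak in 1 replicate only, beside 65.9% shared in the whole series. In the shared collagen regions the log2 ratio of the replicates had an SD of 0.31, beside 0.35 for all shared regions. Replicate 1 was higher in 88 of the 100 shared regions, with a median log2 ratio of 0.35, beside 0.31 for all shared regions. At the 19 shared promoter regions of the loci it was 0.16, beside 0.20 at all promoters, and at the 81 others 0.39, beside 0.35. The shared Col4a1-Col4a2 promoter had a log2 ratio of 0.04 and the Col4a3-Col4a4 promoter 0.05, both within 1 SD (0.33) of the median of all promoter regions.

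Regions of replicate 2 alone were concentrated in the first part of Col4a2. Between 1 kb and 30 kb downstream of its start, 23 regions had a peak in replicate 2 alone, none in replicate 1 alone, and 5 in both. The 23 regions ran from chr8:11314661 to chr8:11338960, all inside introns of Col4a2, and were weak, with signals from 0.245 to 0.686 and a median of 0.388. The bases that passed a false discovery rate of 0.05 took up 32.2% of that stretch in replicate 2 and 4.71% in replicate 1, and with a rate under 0.001 they covered 21.6% and 2.59%. Replicate 2 had 36 footprints in the 23 regions and replicate 1 none. Of the 23 regions, 15 also overlapped a peak of the smaller peak set of replicate 2.

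On the other side of the shared start the excess lay with replicate 1. In the first 30 kb of Col4a1, replicate 2 alone had 0 regions and replicate 1 alone had 5, which is at percentile 99.4 of all genes for replicate 1 alone. Over the whole Col4a1-Col4a2 locus, 28 regions were in replicate 2 alone and 14 in replicate 1 alone, while in the whole series 18052 were in replicate 2 alone and 35776 in replicate 1 alone. Of all 21911 genes, 4 had at least 23 regions of replicate 2 alone in their first 30 kb. They were Trex1, the overlapping genes Ugt1a1 and Ugt1a2, each with 25, and Col4a2 itself, and the median gene had 0. The stretch, its length and these genes were chosen after the values had been seen, and its cause was not tested.

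**Figure D5:**
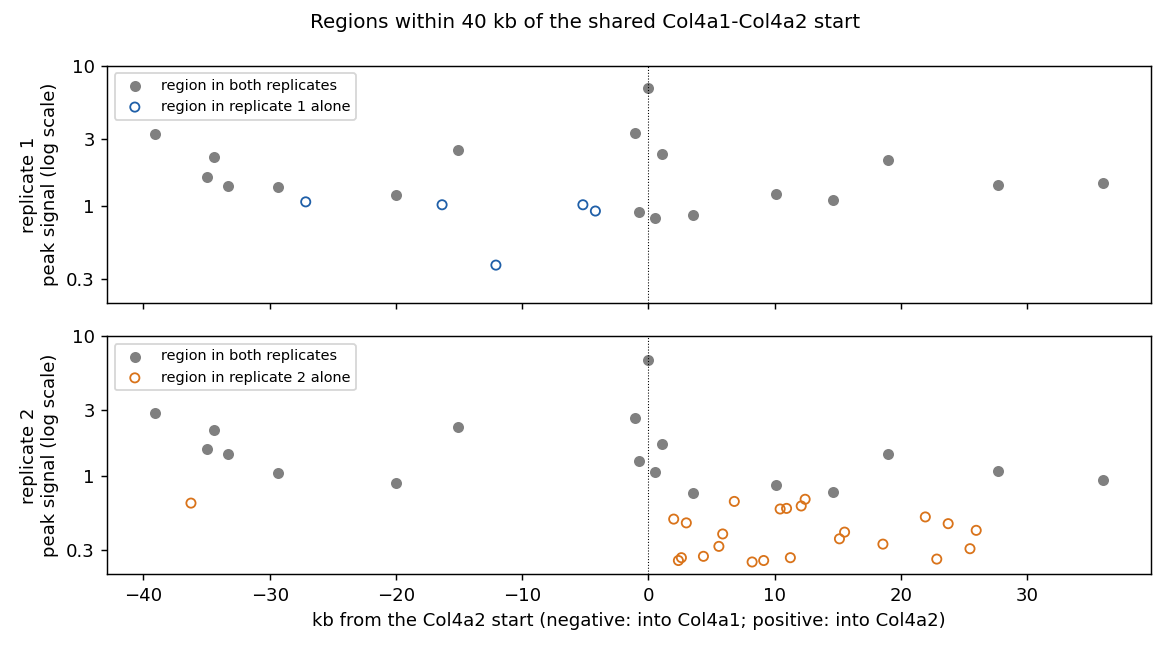
Regions within 40 kb of the shared start are plotted by distance (horizontal axis, kb) and peak signal (vertical axis, log scale) for replicate 1 (top) and replicate 2 (bottom), in grey where both replicates have a peak and as open coloured circles where 1 has. In replicate 2, 23 weak regions follow one another over the first part of Col4a2, and replicate 1 has none of them.

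At the shared promoter too, listed bases were more in replicate 2. In the 2001 bp around the 5′ end of Col4a2, bases with a false discovery rate under 0.05 made up 75.9% in replicate 1 and 97.6% in replicate 2, and under 0.001 they made up 32.98% and 89.96%. Around Col4a3 they made up 32.98% and 41.7% under 0.05, around the 5′ end of Col18a1 37.1% and 40.03%, and around that of Col15a1 24.3% and 52.2%. Under 0.001 they made up 26.7% and 31.03% around Col4a3, 15.5% and 30.3% around Col18a1, and 19.7% and 18.3% around Col15a1, so the order of the replicates at Col15a1 turned with the limit. The peak signal at the Col4a1-Col4a2 start was nearly equal in the replicates all the same.

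Other components of basement membranes were open in the same hearts. All 15 genes of a list of laminins, nidogens and further components were open, beside the 68.8% of all genes. The highest were Hspg2, the gene of perlecan, at 16.5 ± 4.69, the laminin chain gene Lamc1 at 10.4 ± 1.19 and the nidogen gene Nid2 at 8.51 ± 1.47 (SD, n = 2 each). The median of the list was 4.53, against 6.60 for open genes. That of the 6 collagen genes was 2.72, with the shared peak of each pair counted for both of its genes. Both medians are below that of open genes.

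Genes that modify, fold, cross-link or bind collagen were open in 15 of 16 cases, beside 68.8% of all protein-coding genes. The highest were P4ha1 and P4hb, which encode the subunits of prolyl 4-hydroxylase, at 22.5 ± 1.70 and 21.4 ± 2.34, and the lysyl hydroxylase gene Plod3 at 13.01 ± 1.83 (SD, n = 2 each). Loxl2, which encodes a cross-linking enzyme, had no promoter peak in either replicate. The median of the list was 7.04.

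The tissue check bears on Col4a3 and Col4a4, whose network is best known outside the heart. All 6 cardiomyocyte, 5 endothelial, 5 fibroblast and 4 smooth muscle and pericyte markers were open, beside 68.8% of all protein-coding genes. Their median promoter signals were 2.41, 2.69, 3.22 and 1.96 in that order, beside 2.13 at Col4a3-Col4a4. Of the kidney markers described, Nphs1 (1.13 in replicate 1 and 0.662 in replicate 2) and Podxl (5.82 and 6.11) had a promoter peak in both replicates, and Umod and Slc34a1 had none. Podxl is also a gene of endothelium. Of 4 lung markers, Ager had one, as had Hopx, which is also a heart gene, and the surfactant genes Sftpc and Sftpb had none. None of the liver markers Alb, Apoa1 and Ttr had a promoter peak. In whole tissue, fewer cells with an open promoter and less accessibility per cell cannot be told apart. How far cells of each kind added to the Col4a3-Col4a4 signal was not tested.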

How the data were processed

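DNase-seq of 2 replicates of 1 group was described, with no contrast to test. Per the submitters' processing notes, which list the deposited files, every set was made per replicate on mm10 without pooling. The sources used here give no caller, version or treatment of reads from the CAST parent. Peak signal is on the authors' read-depth scale, of which no further detail is given. The deposited false discovery rates, a kind of q-value, are listed for runs of bases under 0.05. Footprints were deposited as intervals, and the other column of those lists, a constant 0.01, was left aside.

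Results rest on the larger peak set. Overlapping or touching peaks were merged, and a region with a peak in each replicate was shared. Each gene took the highest peak of its promoter windows, and a peak near several starts counted for each. Percentiles are over all protein-coding genes, open ones, those of at least 100 kb, pairs or regions. Named beside the members were genes with a start under a member's peak, the 3 highest and the peakless genes of each list, the 3 strongest shared regions away from promoters in each member's window and the 3 genes nearest in signal. Members and lists were chosen with earlier results of these data known, and the CTCF letters after the sequences were seen. Other names, and the 30 kb stretch of Col4a2, were chosen after values were seen. 1 marker gene is not reported here. Simulated overlaps and motif matches were all recovered. Python 3.11.15, pandas 2.3.3, numpy 2.4.6, pysam 0.24.0, samtools 1.23.1 and matplotlib 3.10.9 were used. Alternatives changed the peak set, window, starts, flank, overlap and replicates.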

Additional observations from a re-analysis of the deposited data

How the results depend on the processing

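The count of 6 open members was the same in the smaller peak set, in the upper 50% of peaks by signal, with windows of 500 bp or 2 kb, at the 5′ end alone and in each replicate alone. The count of collagen pairs with 1 peak over both starts was 2 when a peak within 100 bp of both starts sufficed, and ranged from 1 to 2 over the replicates alone, with 2 in replicate 2. The 100 shared regions became 65 in the smaller peak set, which has fewer peaks. With flanks of 0 kb, 10 kb and 50 kb they were 85, 91 and 117, with 50% of a peak's length covered 96, in the upper 50% of peaks 74, and each replicate alone gave 130 to 138 peaks. The promoter signal of Col15a1 was 1.34 at the 5′ end alone and 6.34 with windows of 2 kb, and that of Col18a1 was 1.26 at the 5′ end alone. Footprints in the promoter windows averaged 52.5 over the replicates, and ranged from 43.5 to 76.5 under the other settings. Of the shares of bases under a false discovery limit, those at stricter limits cover fewer bases by construction. No paired analysis was possible because there is 1 group. Unknown depth limits every absence of a peak.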
